A study of Homo sapiens with 4 samples.

Results

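A set of 10 genes that restrain or report signalling through the ERK branch of the mitogen-activated protein kinases (MAPK) were followed in cultures labelled HT-29, a human colorectal adenocarcinoma line: the phosphatase genes DUSP1, DUSP4, DUSP5, DUSP6 and DUSP10, the Sprouty genes SPRY2 and SPRY4, the ETS transcription factor genes ETV4 and ETV5, and PHLDA1. They were chosen by symbol, with their ratios in these arrays already known, so their values below are a description and carry no test. The 10 members have 18 probes among the 20044 genes measured. The groups were cells given cyclopamine, a plant alkaloid and inhibitor of Smoothened in the Hedgehog pathway, at 20 µM for 48 h, with a control on the same chip, and cells given GANT61, a small molecule used to inhibit the Hedgehog effectors GLI1 and GLI2, at 20 µM for 48 h, with a control on a second chip. The chip 2 control received the solvent DMSO; for the chip 1 control the labels disagree, its title and treatment giving DMSO and its source name tomatidine, a compound of related structure. Each group is 1 Illumina HumanHT-12 V4 array of 1 culture, so no difference has a replicate check.

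When ERK is active it phosphorylates ETS-family factors and other targets in the nucleus, and a set of genes that damp the cascade is transcribed in turn. Dual-specificity phosphatases remove the activating phosphates from ERK, JNK or p38, Sprouty proteins act between growth factor receptors and the kinases, and ETV4 and ETV5 belong to the PEA3 group of ETS factors. Levels of DUSP6, SPRY2, SPRY4, ETV4, ETV5 and PHLDA1 are widely used as a readout of ERK output, whereas DUSP1 also responds to stress and to other inputs. In colorectal cancer cells the cascade is often kept active by mutations upstream of ERK.

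In each comparison some members stood well above their control and none stood 2-fold below it. With cyclopamine, ETV5 (at least 5.58-fold), ETV4 (3.69-fold), PHLDA1 (2.02-fold) and DUSP4 (at least 1.96-fold) exceeded the chip 1 control, and DUSP1 differed by a log2 ratio of 0.09. With GANT61, DUSP5 was 21-fold and DUSP1 3.44-fold higher than in the chip 2 control, whereas DUSP6, SPRY2, SPRY4 and ETV4 had log2 ratios between -0.33 and -0.08. At the probe representing each gene (the one with the highest mean level), 4 of 7 members above background on at least 1 array had a log2 ratio of at least 1 (2-fold) with cyclopamine, against 3.1% of 8999 genes, and 0 were 2-fold lower, against 1.91%. With GANT61 the counts were 2 of 8 higher, against 3.5% of 10439 genes, and 0 lower, against 2.03%. Members were chosen on these same ratios, and ETV5 and DUSP4 entered the cyclopamine count only through the cyclopamine array, so nothing is read from the counts. Counts use the measured ratio, which for DUSP4 (log2 2.18) passes 2-fold while its bound does not.

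Normalised levels are log2 intensities after background correction, and a probe counts as above background at a detection p under 0.01. Above background were 13453 probes with cyclopamine and 13908 in the chip 1 control, 15958 with GANT61 and 17068 in the chip 2 control. Between probes of 1 gene, the spread of a log2 ratio was 0.23 (SD per probe, 1515 genes) for cyclopamine and 0.27 (1900 genes) for GANT61. That spread covers the array only, not the culture. The chips differed in markers of cell identity. Of 11 colonic epithelial markers, 2 (KRT8 and KRT18) were above background on each array of chip 1, with EPCAM and CDH1 below it, against 9 on each array of chip 2. Of 6 mesenchymal markers, 2 (VIM and CDH2) were above background on each array of chip 1 and 1 (VIM) on each array of chip 2. The others were above it on no array. VIM, a mesenchymal filament gene, stood at a level of 11.66 with cyclopamine and 11.60 in the chip 1 control, against 6.32 with GANT61 and 6.22 in the chip 2 control. A comparison of the compounds is therefore also one of different cultures, and the compound, the chip and the culture cannot be told apart.

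**Figure D1:**
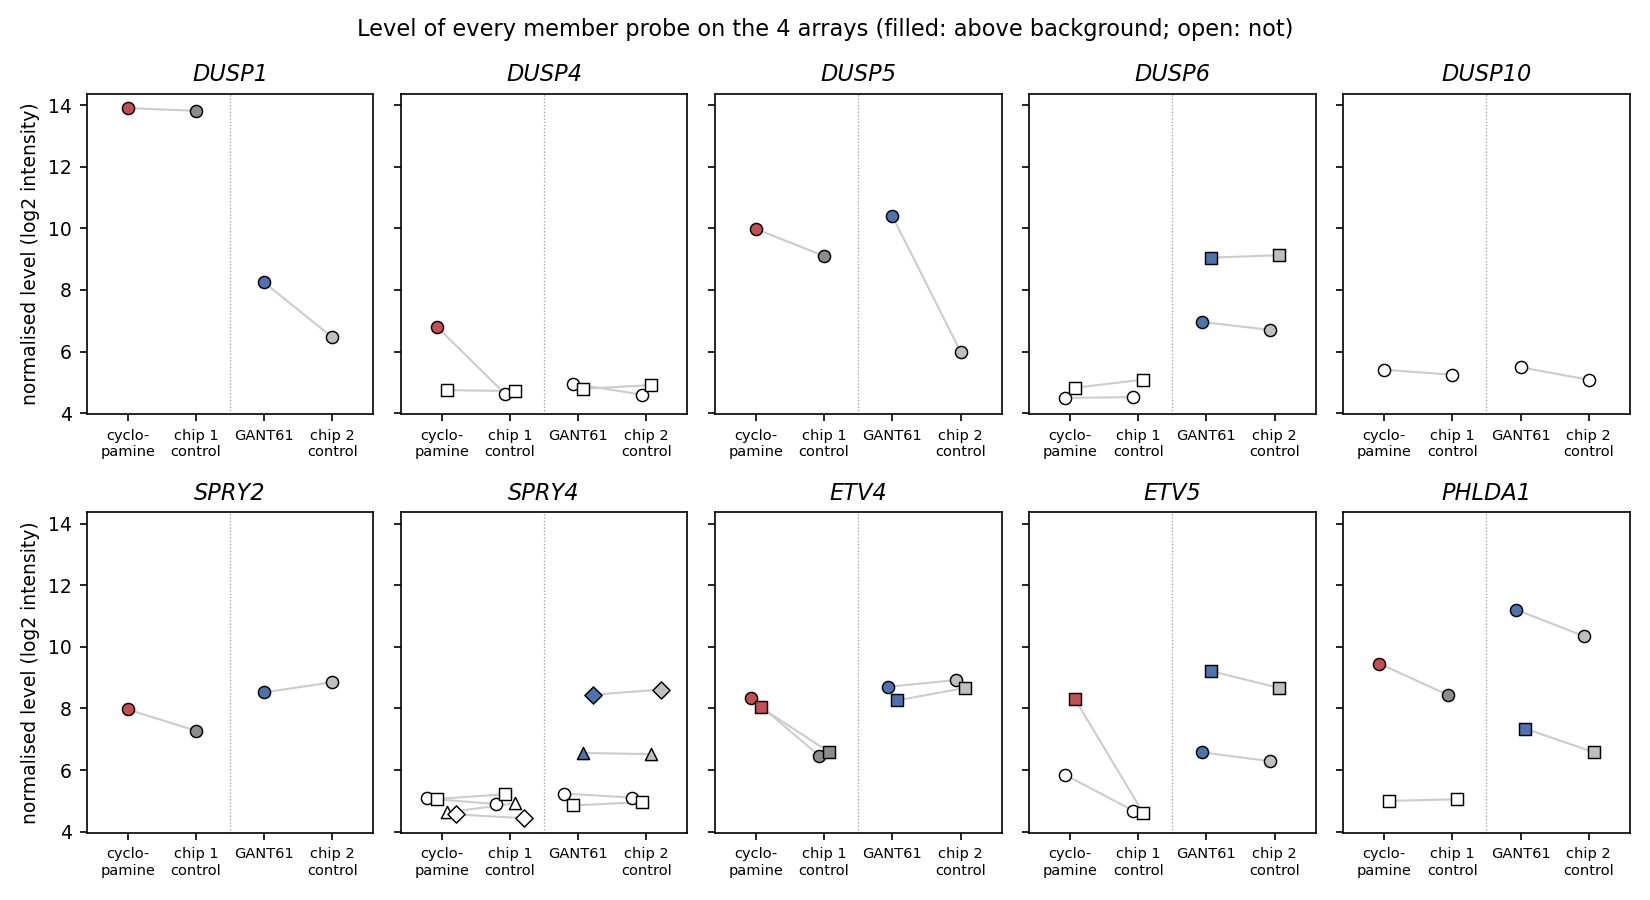
Normalised level (log2 intensity, y axis) of each of the 18 member probes on the 4 arrays (x axis); each marker shape is 1 probe of the gene, lines join arrays of the same chip, and open markers are not above background. DUSP1 lies near 14 on both chip 1 arrays (13.91 and 13.82), DUSP6 and SPRY4 are above background on chip 2 and not on chip 1, and DUSP5 shows the steepest line, on chip 2.

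DUSP5, a nuclear phosphatase that acts on ERK, had the highest GANT61 ratio among members. Its probe (ILMN_1656501) read 1363 units of deposited intensity with GANT61, against 124.2 in the chip 2 control. The log2 ratio of 4.39 was the second highest of 10439 genes. With cyclopamine the same probe read 939.5, against 616.3 in the chip 1 control, a log2 ratio of 0.88 that ranked 384 of 8999. DUSP5 was thus above background on all 4 arrays and lowest in the chip 2 control, with levels of 10.40 with GANT61, 9.98 with cyclopamine and 9.10 in the chip 1 control. It has 1 probe here, so no other probe checks the ratio.

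DUSP1, an immediate early phosphatase that acts on p38 and JNK as well as ERK, had very different starting levels. Its probe (ILMN_1781285) read 378.4 with GANT61, against 157.5 in the chip 2 control, and the log2 ratio of 1.78 ranked 85 of 10439. On chip 1 it read 16417.2 with cyclopamine, against 16971.5 in the chip 1 control. The log2 ratio was 0.09 after normalisation, within the spread between probes, and -0.05 between these deposited intensities. The chip 1 control was 163-fold above the chip 2 control, a ratio that ranked 10 of 10905 between the controls. The DUSP1 level with GANT61 was 8.24, far below the 13.91 and 13.82 of chip 1.

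DUSP6, a cytoplasmic phosphatase specific for ERK, was measured by 2 probes and gave ratios near 0 with GANT61. The brighter one (ILMN_2396020) read 599.2 with GANT61, against 676.1 in the chip 2 control, and the dimmer one (ILMN_1677466) read 188.9 with GANT61, against 179.1. Their log2 ratios were -0.08 and 0.25, within the spread between probes and of opposite sign. On chip 1 the brighter probe read 81.0 with cyclopamine and 91.1 in the chip 1 control, the dimmer one 54.2 and 55.8, and neither was above background. No change of DUSP6 with cyclopamine was detectable.

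DUSP4, a nuclear phosphatase of ERK and JNK, was above background on 1 array. Its probe ILMN_1808391 read 144.1 with cyclopamine, against 66.05 in its control, 69.8 with GANT61 and 51.6 in the chip 2 control. Because the chip 1 control was below background, the ratio is a bound, at least 1.96-fold higher with cyclopamine. Its other probe (ILMN_2283398), which the platform annotation ties to another transcript, read between 61.7 and 76.7 and was above background nowhere. DUSP10, a phosphatase of p38 and JNK, read 101.1 with cyclopamine and 96.4 in the chip 1 control, while GANT61 gave 92.7, against 73.75 in the chip 2 control. None of these passed, the nearest being GANT61 with a detection p of 0.0104, so DUSP10 has no measured change.

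The Sprouty genes encode membrane-associated inhibitors of receptor tyrosine kinase signalling. SPRY2 (ILMN_2089329) read 251.5 with cyclopamine, against 196.7 in the chip 1 control, a log2 ratio of 0.69. With GANT61 it read 440.6, against 578.8 in the chip 2 control, a log2 ratio of -0.33. The signs were opposite, and both ratios exceeded the spread between probes, the GANT61 ratio only just. SPRY4 has 4 probes, of which 2 were above background, on chip 2 alone. The brightest (ILMN_2086105) read 422.5 with GANT61, against 504.1 in the chip 2 control (log2 ratio -0.17), and ILMN_1797596 read 154.6 with GANT61, against 162.0 (0.04). Ratios are of normalised levels, so for ILMN_1797596 the sign differs from that of the deposited intensities. All 4 SPRY4 probes were below background on both arrays of chip 1, at 45.4 to 95.4 units.

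ETV4 and ETV5, the PEA3 factors, were both higher with cyclopamine. ETV5 (ILMN_1739222) read 311.2 with cyclopamine, against 65.3 in the chip 1 control, which was below background, and was at least 5.58-fold higher in normalised level. Its measured log2 ratio of 3.70 was the fourth highest of 8999. Each bound of this kind holds for that normalisation only: unnormalised intensities gave ETV5 a log2 ratio of 2.25, a smaller fold than the bound. The other ETV5 probe (ILMN_1723260) read 109.9 with cyclopamine, just short of background (detection p of 0.0117), against 70.8 in the chip 1 control. With GANT61 these probes read 661.1 and 155.9, against 519.6 and 143.8 in the chip 2 control, with log2 ratios of 0.55 and 0.29.

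Both ETV4 probes were above background on all 4 arrays, so its ratio with cyclopamine is measured and not a bound. ILMN_1753830 read 316.9 with cyclopamine, against 135.9 in the chip 1 control (log2 ratio 1.88), and ILMN_2341661 read 262.7, against 142.7 (1.45). The probes gave the same direction. With GANT61 they read 488.6 and 382.5, against 602.9 and 520.8 in the chip 2 control, with log2 ratios of -0.22 and -0.40. ETV4 and ETV5 thus lay on the same side with cyclopamine and on opposite sides of 0 with GANT61. Of the ETV4 ratios with GANT61, however, -0.22 was within the spread between probes (0.27) and -0.40 beyond it.

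PHLDA1, a pleckstrin homology-like protein, was higher with both compounds. Its brighter probe (ILMN_1687978) read 652.0 with cyclopamine, against 393.4 in the chip 1 control. It read 2161 with GANT61, against 1414 in the chip 2 control, with log2 ratios of 1.01 and 0.86. The dimmer probe (ILMN_3251550) gave 0.76 with GANT61, from 231.8 and 168.3 units, and was below background on chip 1, at 88.8 with cyclopamine and 89.8 in the chip 1 control. The cyclopamine value therefore rests on 1 probe. By measured ratio it passed 2-fold by the least of these members, and the next member, DUSP5 at 0.88, fell short of it.

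**Figure D2:**
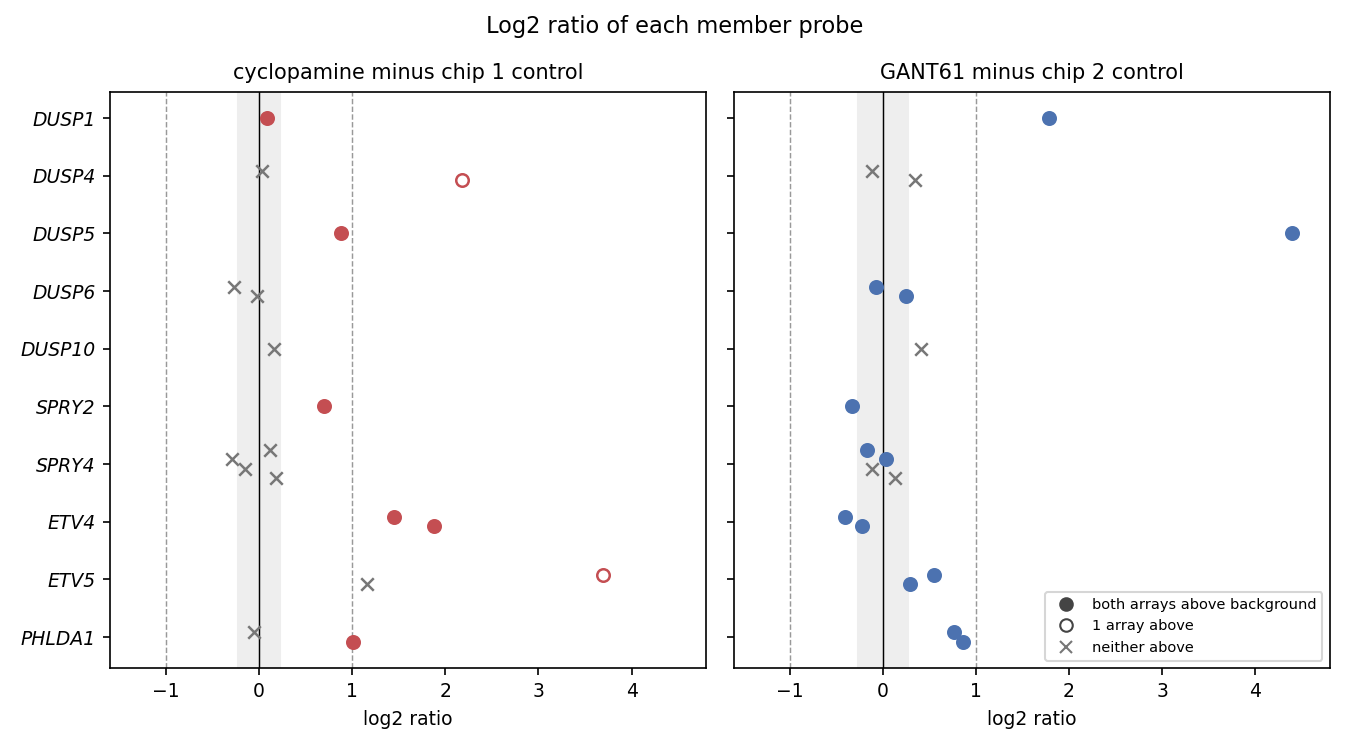
Log2 ratio (x axis) of each member probe, cyclopamine minus chip 1 control on the left and GANT61 minus chip 2 control on the right; the grey band is 1 SD between probes of a gene (0.23 and 0.27), dashed lines mark 2-fold, and markers show how many of the pair of arrays were above background. ETV4, ETV5, DUSP4 and PHLDA1 pass the right dashed line with cyclopamine, DUSP1 and DUSP5 with GANT61.

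The control cultures themselves differed in every tested member by at least 2-fold, where 42.4% of 10905 genes did so. Of 8 members, 2 were higher in the chip 1 control, DUSP1 and DUSP5 (8.59-fold), against 19.1% of genes. The 6 others were lower there, against 23.3% of genes: DUSP6 (at least 9.80-fold), ETV5 (at least 7.10-fold), SPRY4 (at least 6.87-fold), ETV4 (5.50-fold), PHLDA1 (3.74-fold) and SPRY2 (2.98-fold). DUSP6, ETV5 and SPRY4 entered this count only through the chip 2 control, where they were high, so nothing is read from it. These folds are those of the representing probes. Dimmer probes, above background in the chip 2 control only, gave smaller bounds. They were at least 1.83-fold for DUSP6, 1.37-fold for ETV5, 1.61-fold for SPRY4 and 1.68-fold for PHLDA1. With detection on both arrays, 3 of 5 members were lower, where 1295 of 7827 genes were, and 2 were higher, where 1469 were. Nothing is read from this count either. With cyclopamine, ETV4 had a level of 8.35 and ETV5 8.32, beside 8.70 and 9.21 with GANT61 and 8.92 and 8.66 in the chip 2 control. The epithelial markers also differed between the controls: their summed linear level was 1876 in the chip 1 control, against 34120 in the chip 2 control. On the treated array of each chip it was 2122 with cyclopamine and 33468 with GANT61. Bright genes weigh most in such a sum, and KRT18 had a log2 ratio of -0.08 between the controls. Single markers moved apart within that sum: of 9 tested with GANT61, 2 were 2-fold lower, CDX2 (log2 ratio -1.44) and VIL1 (-1.08), whereas KRT20 had 0.85. The part of cell identity in the members' starting levels was not tested.

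RefSeq promoter windows (GRCh38.p14) matched 6 members. Those of DUSP1 and PHLDA1, higher with GANT61, and of DUSP6 and SPRY4, which had ratios near 0 with it, are printed as the 250 bases before the start. Capitals mark matches to TGACGTCA (the cyclic AMP response element), TGACG (contained in it), TGANTCA (AP-1), CCGGAAG (an ETS core), GACCACCCA (a GLI motif) and the CArG box, on either strand, and to TATAAA on the gene's own strand. The window of DUSP1 is chr5:172771196-172771445, of PHLDA1 chr12:76031777-76032026, of DUSP6 chr12:89352502-89352751 and of SPRY4 chr5:142324248-142324497, all on the minus strand.
DUSP1: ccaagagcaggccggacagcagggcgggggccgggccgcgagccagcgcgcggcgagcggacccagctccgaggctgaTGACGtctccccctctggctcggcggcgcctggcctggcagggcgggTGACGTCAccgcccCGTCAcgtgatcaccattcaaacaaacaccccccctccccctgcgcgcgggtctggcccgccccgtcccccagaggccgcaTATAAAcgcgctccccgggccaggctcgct
PHLDA1: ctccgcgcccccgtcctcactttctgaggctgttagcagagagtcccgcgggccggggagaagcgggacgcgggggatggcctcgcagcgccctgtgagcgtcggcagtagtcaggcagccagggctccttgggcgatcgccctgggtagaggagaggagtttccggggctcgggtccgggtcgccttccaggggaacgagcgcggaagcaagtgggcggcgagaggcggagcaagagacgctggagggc
DUSP6: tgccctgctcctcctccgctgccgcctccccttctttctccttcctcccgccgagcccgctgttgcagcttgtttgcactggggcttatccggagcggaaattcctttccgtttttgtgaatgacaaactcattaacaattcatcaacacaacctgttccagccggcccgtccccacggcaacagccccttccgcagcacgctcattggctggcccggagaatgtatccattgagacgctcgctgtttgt
SPRY4: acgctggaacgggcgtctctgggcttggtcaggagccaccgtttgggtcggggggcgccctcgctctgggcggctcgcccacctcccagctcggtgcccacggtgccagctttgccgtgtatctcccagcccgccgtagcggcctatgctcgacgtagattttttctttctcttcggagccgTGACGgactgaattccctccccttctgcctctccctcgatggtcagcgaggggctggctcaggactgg
DUSP1 holds TGACGTCA from 125 to 118 bases before the start, found in 1.65% of 35116 windows, and TATAAA from 30 to 25 bases before it, found in 6.8%. TGACG, found in 21.2% of windows, also stands in DUSP1 outside that element and in SPRY4 from 68 to 64 bases before the start. The windows of PHLDA1 and DUSP6 hold none of the motifs. None of the 4 windows holds TGANTCA (6.57% of windows), CCGGAAG (8.52%), GACCACCCA (0.199%) or the CArG box (1.16%). These matches describe letters, not binding.

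Other genes of the pathway were read from lists written with earlier results of these arrays known, so nothing is read from their counts. Reported ERK output genes outside the members had a median log2 ratio of 0.75 over 10 tested with cyclopamine and 0.72 over 11 with GANT61, where the medians of all tested genes were -0.01 and -0.01. With cyclopamine 1 of 10 was 2-fold higher, against 3.1% of genes, and 0 were lower, against 1.91%. The higher gene was CCND1, the cyclin D1 gene, at levels of 9.31 with cyclopamine and 7.80 in its control. With GANT61 5 of 11 were 2-fold higher, against 3.5% of genes, and 0 lower, against 2.03%. However, the higher count was 2 or 3 under each of the 5 other normalisations. IER3, an early response gene, had a log2 ratio of 1.57, PLAUR, the urokinase receptor, 1.49, FOSL1, an AP-1 subunit, 1.33, EGR1, an early zinc finger factor, 1.05 and ERRFI1, an inhibitor of the EGF receptor, 1.02. CCND1 (0.12) and EPHA2, an ephrin receptor (0.01), stayed near 0 with GANT61, against 1.52 and 0.76 with cyclopamine.

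Relatives of the members showed mixed values. For the list counts with each compound here and below, the shares of all tested genes are those just given. SPRED2, a Sprouty-related inhibitor of the cascade, was at least 2.63-fold higher with cyclopamine, at a level of 7.23, against 4.75 and below background in the chip 1 control, and had a log2 ratio of 0.33 with GANT61. SPRY1 had ratios of 0.02 with cyclopamine and -0.36 with GANT61, and SPRED1 -0.26 with GANT61. A second SPRY1 probe gave 0.11 with cyclopamine and -0.88 with GANT61. Among other ETS factors 0 of 8 were 2-fold apart with either compound at the representing probe. A second probe of ETS1, the founding member of the family, gave 1.202 with GANT61, where the representing one gave 0.17. Under median scaling 1 of the 8 was 2-fold lower with cyclopamine. ELK4 had -0.92 with cyclopamine, and ETS2 -0.76 with GANT61. PHLDA2 and PHLDA3 had 0.35 and 0.61 with cyclopamine, against 1.61 and 1.08 with GANT61.

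Of the other MAP kinase phosphatases, DUSP2, a nuclear enzyme known from lymphocytes, was lower with cyclopamine, at 7.59, against 8.68 in the chip 1 control (log2 ratio -1.08). It fell short of 2-fold without background correction and with an offset of 50. DUSP16 had -0.37, DUSP9 -0.28 and DUSP8 0.05 with cyclopamine, and DUSP8 0.74, DUSP16 0.44 and DUSP2 0.08 with GANT61. Among atypical dual-specificity phosphatases, 0 of 7 were 2-fold apart with cyclopamine. With GANT61 1 of 9 was 2-fold higher, DUSP3, at levels of 11.32 with GANT61 and 10.28 in the chip 2 control. The count was 0 of 9 under neqc within each chip, median scaling and the unnormalised intensities.

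Transcripts of the kinases and adaptors themselves were all within 2-fold of the control where tested, with 1 exception in the p38 branch. Of the ERK cascade list, 12 genes were tested with cyclopamine and 16 with GANT61, and 0 were 2-fold apart in either. At the representing probes their ratios ran from -0.21 to 0.35 with cyclopamine and from -0.22 to 0.80 with GANT61, with medians of -0.02 and 0.33. Over the settings these medians ran from -0.28 to -0.01 and from 0.11 to 0.33. MAP2K1, which encodes a MEK kinase that activates ERK, had 0.07 with cyclopamine and 0.37 with GANT61, and MAPK3, the gene of ERK1, -0.16 and -0.22. A second MAPK3 probe gave -0.56 with GANT61. At the upper end of the GANT61 range was MKNK2, a kinase downstream of ERK, at 0.80, but its other probe gave -0.22. In the p38 and JNK cascades 1 of 5 was 2-fold higher with cyclopamine, MAP2K3, whose product activates p38, at 1.01 with other probes down to 0.71, and 0 of 7 were 2-fold apart with GANT61. MAP2K3 fell short of 2-fold under 5 of 9 alternatives. Among those that can change a ratio, only neqc within each chip kept it 2-fold higher.

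**Figure D3:**
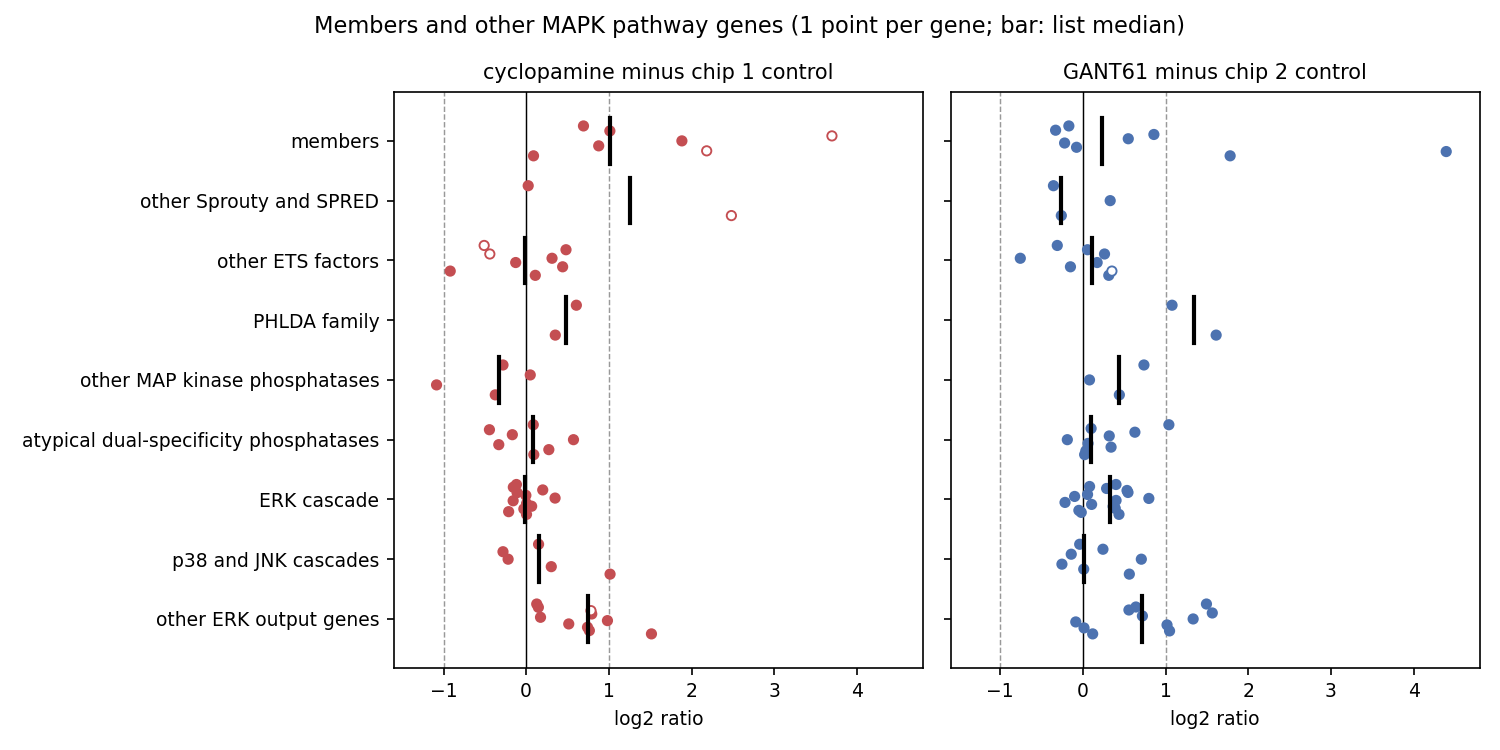
Log2 ratio (x axis) of every tested gene of each list (1 point per gene, open where 1 array was below background), with the list median as a black bar, for cyclopamine minus chip 1 control on the left and GANT61 minus chip 2 control on the right. The ERK cascade genes lie between -0.22 and 0.80, whereas members reach 3.70 with cyclopamine and 4.39 with GANT61.

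Patterns most like those of the leading members were sought over the 2 log2 ratios, by Euclidean distance among 8176 genes above background on each chip. Nearest to ETV5 were TGM2 (distance 0.91), HERC5 (1.04), CCL5 (1.05), OASL (1.10) and SPRED2 (1.24). Their ratios were 2.48 to 3.91 with cyclopamine and -0.48 to 0.68 with GANT61. Nearest to DUSP5 were AKR1C2 (distance 0.39), RBPMS2 (1.03), UCA1 (1.08), RNY4 (1.35) and CDKN1A (1.43), with -0.13 to 1.04 and 2.97 to 4.74. Likeness over 2 ratios from 4 arrays is a description only.

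The member ratios depended on normalisation in size more than in side. ETV5, ETV4 and DUSP4 stayed at least 2-fold higher with cyclopamine, and DUSP1 and DUSP5 with GANT61, under each alternative that measured them. PHLDA1 with cyclopamine fell short of 2-fold under 5 of 9 alternatives, with log2 ratios from 0.48 (mean of its probes) to 0.95 (an offset of 50). The detection alternatives leave a ratio as it is. Among those that can change it, only neqc within each chip kept PHLDA1 2-fold higher. DUSP1 with cyclopamine and DUSP6 with GANT61 crossed 0, with ranges of -0.05 to 0.09 and -0.24 to 0.09.

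**Figure D4:**
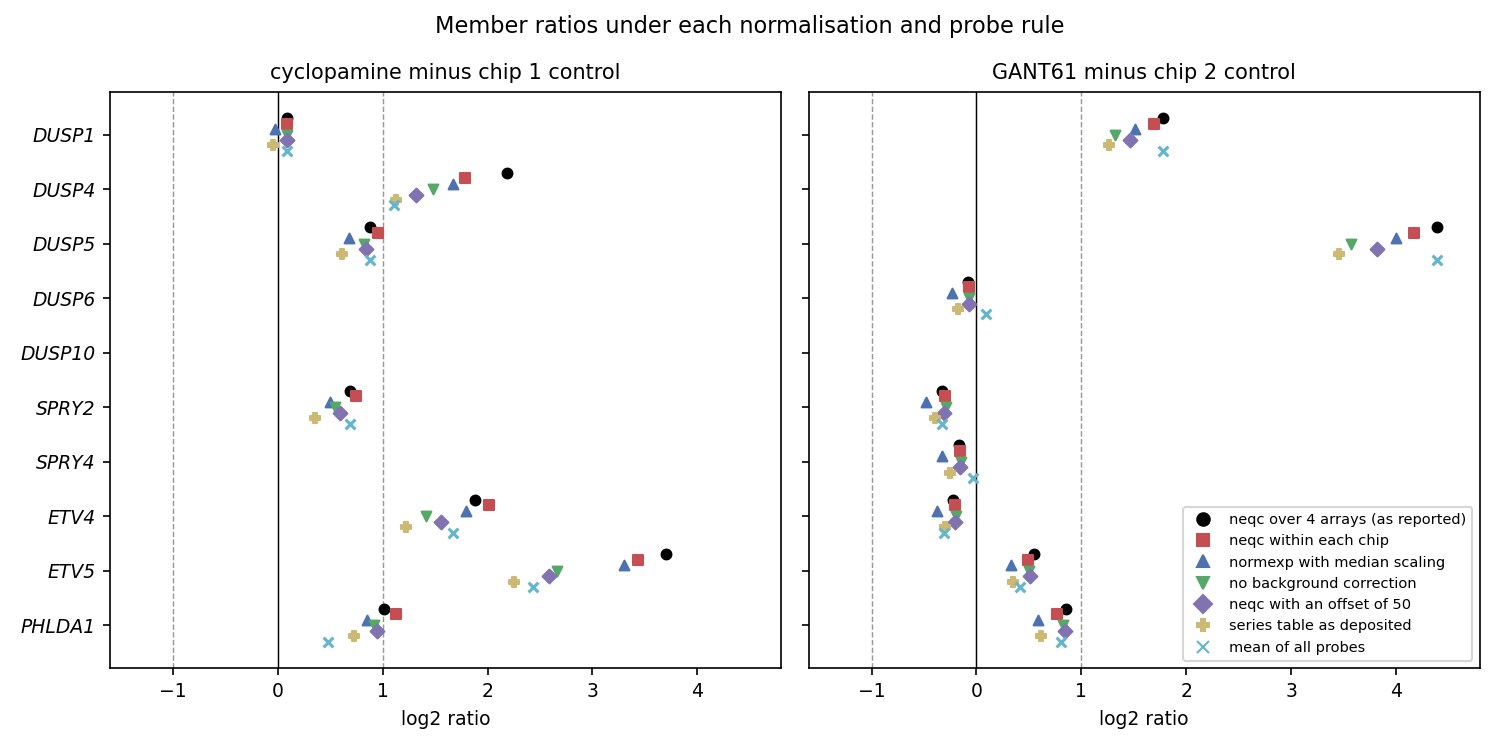
Log2 ratio (x axis) of each member under 7 normalisations or probe rules (marker shapes), cyclopamine minus chip 1 control on the left and GANT61 minus chip 2 control on the right; dashed lines mark 2-fold. ETV5 with cyclopamine runs from 2.25 to 3.70 and DUSP5 with GANT61 from 3.46 to 4.39, all above 2-fold, and DUSP10, below background throughout, has no points.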

How the data were processed

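Total RNA from 4 cultures was labelled with biotin and hybridised to 4 Illumina HumanHT-12 V4 arrays, per the labels' protocols. The deposited tables hold summarised bead intensity and a detection p-value per probe; the software that summarised them is not given in the sources used. The deposited series table holds log2 intensity, equal to log2 of the deposited intensity within 5e-09, and so is not normalised. The 47227 probes on both chips were corrected and quantile normalised with neqc (limma 3.58.1, R 4.3.3; offset 16, which compresses ratios of dim probes), checked on simulated data. The platform annotation, updated by Entrez identifier, gave 30111 probes 1 symbol and 8 several; 17108 had none, and 30072 matched a current identifier. Each gene was represented by its probe with the highest mean level.

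Each compound was compared with the control of its chip, and a gene was tested where at least 1 of the pair had a detection p under 0.01. Fold changes are ratios of normalised intensity. For an array below background, the lowest level above background on it (or the probe's own, if higher) stood in, and the fold is written as "at least". No p-value for a difference is given, since each group has 1 array, which limits the precision. Members and lists were chosen with earlier results of these data known. Named from each list were genes at least 2-fold apart and up to 4 others by size of ratio; nearest patterns were the 5 genes at the smallest distance. Promoter windows came from RefSeq (GRCh38.p14). Alternatives covered normalisation, background correction, detection and probe rule.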

Additional observations from a re-analysis of the deposited data

How the results depend on the processing

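Across 9 alternatives per comparison no member ratio of at least 2-fold changed sign. Of 61 alternative values of members with cyclopamine, 42 moved by less than the spread between probes, and of 72 with GANT61, 64 did. These counts include the detection alternatives, which change only the genes tested, so their ratios could not move. The mean of all probes likewise could not move a gene with 1 probe. The counts are therefore no measure of stability. Requiring detection on both arrays left 2 of 5 members 2-fold higher with cyclopamine, where 130 of 8007 genes were. ETV5 and DUSP4 were then not tested. Among the controls it left 3 of 5 members 2-fold lower for chip 1 than for chip 2, where 1295 of 7827 genes were. Median scaling and the series table moved the median of all tested genes to -0.25 and -0.19 with cyclopamine and to -0.20 and -0.11 with GANT61.

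Counts over all genes depended on the setting. With cyclopamine 279 were 2-fold higher and 172 lower; 93 were lower with neqc within each chip. Median scaling gave 125 higher, so that 34.7% of calls were on the higher side, against 61.9%. Without background correction 110 were higher and 31 lower, with an offset of 50 there were 122 and 39, with detection on both arrays 130 and 41, and as deposited in the series table just 61 higher and 76 lower. With GANT61 365 were higher and 212 lower; 416 were lower with median scaling (37.2% of calls higher, against 63.3%), 242 higher and 88 lower without background correction, 105 lower with an offset of 50, and 183 higher and 132 lower in the series table. Between the controls, with settings chosen after seeing the data, 2546 were lower in chip 1 and 1295 with detection on both arrays; the share of calls on the higher side was 45.0%, against 30.3% with neqc within each chip, 27.5% with median scaling and 53.1% with detection on both arrays. The cause was not tested, except that detection on both arrays tests fewer genes. The list medians of ERK output genes ran from 0.28 to 0.75 with cyclopamine and from 0.45 to 0.72 with GANT61, above 0 throughout, while those of atypical phosphatases changed sign with each compound. Dim probes limit the cyclopamine ratios of DUSP4, DUSP6, DUSP10, SPRY4 and ETV5. No paired analysis was possible because each group has 1 array.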

Other observations

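Between the control cultures, several pathway genes outside the members also stood far apart. SPRED1, an inhibitor of the ERK cascade, was at least 26.8-fold and SPRED2 at least 4.70-fold lower on chip 1. SPRY1 had levels of 7.50 in the chip 1 control and 9.74 in the chip 2 control. SPRED1 and SPRED2 were below background in the chip 1 control and were tested only through the chip 2 control, where they were high, so no count is read from that list. ETS2, an ETS factor, had 7.05 in the chip 1 control and 11.23 in the chip 2 control, and ETV6 6.03 and 9.05 in the same order. In the p38 branch MAPK13, a p38 kinase gene known from epithelia, stood at least 28.2-fold lower on chip 1.

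In the other direction, DUSP2 had a level of 8.68 in the chip 1 control and 5.76 in the chip 2 control, a log2 ratio of 2.92, and ELK4, an ETS factor that works with serum response factor, was at least 3.79-fold higher in the chip 1 control. Of the reported ERK output genes, 5 of 11 were 2-fold higher in the chip 1 control, where 19.1% of genes were. There 4 were 2-fold lower, where 23.3% of genes were. MYC (log2 ratio 2.03), IER3 (1.88), PLAUR (1.30), FOS (1.18) and FOSL1 (1.09) were higher there. EGR1 was at least 4.57-fold lower, and EPHA2 (-2.29), CCND1 (-2.26) and ERRFI1 (-1.56) were lower as well. EGR1 was below background in the chip 1 control and was tested only through the chip 2 control, so nothing is read from these counts. The part of cell identity, culture and chip in these values was not tested.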
